A study of Mus musculus with 32 samples.

Results

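Chromatin accessibility in marrow of 3-week and 4-week mice was set against that of 1-week mice, ages around and before weaning. The members were chosen by age label: 2 libraries labelled 3w BM and 3 labelled 4w BM, pooled to 5, against 3 labelled 1w BM. They are 8 of the 32 samples of the series and 8 of the 26 libraries in its developmental count table. All are ATAC-seq libraries of C57BL/6 mice, with no allele or treatment named in the labels. The cells were haematopoietic stem and progenitor cells (HSPC) sorted as LSK, which are negative for lineage markers and positive for Sca-1 and Kit. For a second look at any change in other libraries, 3 libraries each of 6w and 8w BM were pooled and set against 3 of perinatal BM, the same cell type. Whether each library is a different animal is not stated in the labels, and p-values rest on the spread among these libraries, part of which may be technical. One of the 8w libraries has an embryonic stage in 1 of its label fields, against its title, and was used by its title.

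ATAC-seq cuts open DNA with the Tn5 transposase, so regions bound by transcription factors or stripped of nucleosomes collect more reads than packed chromatin. Between fetal life and adulthood, blood stem cells pass from a fast-dividing, fetal-type state to a largely quiescent adult one. Known carriers of the fetal state are the RNA-binding proteins Lin28b, which blocks maturation of let-7 microRNAs, and Igf2bp3, a let-7 target that binds Igf2 and other mRNAs. Weaning adds a change of diet, of microbial load and of circulating hormones such as thyroid hormone and corticosterone.

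The count table held 99037 regions, of which 96960 were autosomal and used here. They were 501 to 2971 bases wide, with a median of 551. Counts summed over all regions were 8768618 and 4759709 in 3w BM 1 and 2, 4288615, 6207394 and 4839618 in 4w BM 1 to 3, and 5694634, 2845113 and 10167340 in 1w BM 1 to 3. The shallow 1w library limits what low regions can show. Levels below are CPM, counts scaled to the size of each library, so they compare libraries and not genes. Correlations of log levels between pairs of the 8 libraries ranged from 0.852 to 0.941 across regions, and no pair within a group agreed within sampling noise (chi-square per region of at least 2.11).

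The sort was checked on its own markers. Kit summed over its regions was 90.0 ± 5.1 CPM in 3w and 4w BM and 92.9 ± 12 CPM in 1w BM (SD, n = 5 and 3), a log2 difference of -0.05 with an adjusted p of 0.909 by edgeR. The gene of Sca-1, Ly6a, had 1 region near background, with 1.91 ± 1.1 CPM in 3w and 4w BM and 2.57 ± 1.7 CPM in 1w BM, so it could not check the gate. Ptprc, the pan-leukocyte antigen CD45, differed by -0.14 and Flt3, a receptor of multipotent progenitors, by -0.11, with adjusted p of 0.654 and 0.695 by edgeR.

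The promoters of 6 genes described below are shown first, because a called region overlaps each of them. Casp1 was picked after its values were seen. A region or gene is named called where edgeR's quasi-likelihood test gave a Benjamini-Hochberg adjusted p under 0.05 over all autosomal features tested. Each window runs from 250 bases before to 50 after the gene start, in RefSeq on GRCm38.p6, 5′ to 3′ on the gene's strand. Capitals mark matches to the GC box GGGCGG, the CCAAT box CCAAT, the AP-1 motif TGANTCA and the E-box CACGTG, on either strand. The first 3 lost accessibility at weaning together with the last, and Klf9 and Casp1 gained it.
Lin28b: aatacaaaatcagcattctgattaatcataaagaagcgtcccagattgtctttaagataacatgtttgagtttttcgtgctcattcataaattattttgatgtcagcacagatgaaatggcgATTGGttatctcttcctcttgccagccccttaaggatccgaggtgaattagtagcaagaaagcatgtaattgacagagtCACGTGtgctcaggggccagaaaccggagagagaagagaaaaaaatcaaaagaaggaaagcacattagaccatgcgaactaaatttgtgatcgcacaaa
Igf2bp3: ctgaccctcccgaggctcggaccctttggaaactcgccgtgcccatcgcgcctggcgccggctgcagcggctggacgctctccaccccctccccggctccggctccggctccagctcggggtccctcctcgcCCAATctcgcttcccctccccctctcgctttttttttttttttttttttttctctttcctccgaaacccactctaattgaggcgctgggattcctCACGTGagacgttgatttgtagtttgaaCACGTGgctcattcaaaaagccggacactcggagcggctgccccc
Zim1: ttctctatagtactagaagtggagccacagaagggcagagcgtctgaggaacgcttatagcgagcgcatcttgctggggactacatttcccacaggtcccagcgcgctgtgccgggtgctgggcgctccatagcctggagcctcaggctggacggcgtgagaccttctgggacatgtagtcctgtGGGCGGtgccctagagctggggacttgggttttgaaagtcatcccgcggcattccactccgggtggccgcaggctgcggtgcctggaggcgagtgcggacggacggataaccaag
Klf9: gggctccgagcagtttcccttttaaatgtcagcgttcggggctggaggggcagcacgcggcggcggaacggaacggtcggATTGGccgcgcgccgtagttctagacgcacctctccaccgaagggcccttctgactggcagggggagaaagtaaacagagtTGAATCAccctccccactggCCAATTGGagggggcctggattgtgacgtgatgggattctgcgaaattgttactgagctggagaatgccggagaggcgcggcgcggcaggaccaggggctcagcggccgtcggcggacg
Casp1: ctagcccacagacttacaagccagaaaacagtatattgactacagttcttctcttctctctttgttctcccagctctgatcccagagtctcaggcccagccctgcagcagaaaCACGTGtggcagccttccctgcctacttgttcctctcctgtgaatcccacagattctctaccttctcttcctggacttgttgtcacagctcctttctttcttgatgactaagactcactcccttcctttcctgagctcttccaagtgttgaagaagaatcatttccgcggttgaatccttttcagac
Nr4a1: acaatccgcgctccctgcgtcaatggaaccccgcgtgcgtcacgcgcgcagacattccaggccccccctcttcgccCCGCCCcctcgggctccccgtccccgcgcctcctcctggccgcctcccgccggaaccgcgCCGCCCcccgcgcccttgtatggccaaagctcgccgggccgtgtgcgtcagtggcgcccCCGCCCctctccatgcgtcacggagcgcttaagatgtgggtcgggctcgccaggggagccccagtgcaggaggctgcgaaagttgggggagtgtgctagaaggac
These windows lie at chr10:45470152-45470451 on the minus strand for Lin28b, chr6:49214905-49215204 minus for Igf2bp3 and chr7:6696383-6696682 minus for Zim1. Those of Klf9, Casp1 and Nr4a1 lie on the plus strand at chr19:23140976-23141275, chr9:5298267-5298566 and chr15:101266596-101266895. Klf9 carried 3 CCAAT matches and 1 AP-1 match, with 63.3% G and C and 28 CpG. The Igf2bp3 window had 1 CCAAT match, 2 E-box matches and 25 CpG, and that of Lin28b had 1 of each and 8 CpG at 39.0% G and C. The Nr4a1 window, with 72.3% G and C, had 3 GC box matches, and that of Zim1 had 1. Casp1 held 1 E-box match and 3 CpG. A match is a run of letters and shows no binding.

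**Figure D1:**
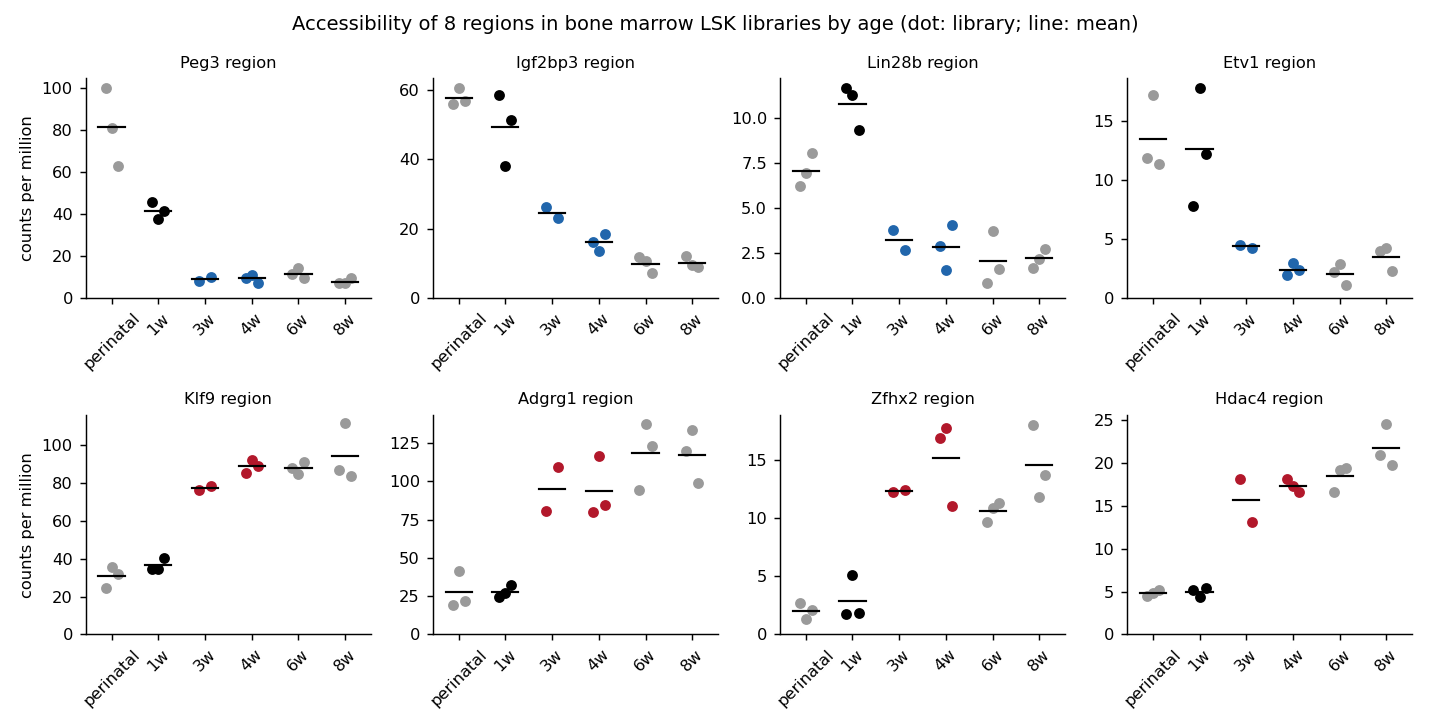
CPM of 8 named regions (y axis, linear, from 0) in each marrow library from perinatal to 8w (x axis, age), a dot for each library and a line for the group mean, with 3w and 4w BM in red where higher and blue where lower than 1w BM in black. The rule that named these regions asked for no overlap between the 5 libraries of 3w and 4w BM and the 3 of 1w BM, so that gap is fixed, while the perinatal, 6w and 8w libraries, in grey, were not used by it.

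Of 96929 autosomal regions tested, 867 (0.894%) were called between 3w and 4w BM and 1w BM. Of these, 381 (0.393%) were higher and 486 (0.501%) lower in 3w and 4w BM. Counts summed per gene, over the regions within or nearest to it, called 157 of 16230 genes (0.967%), 70 higher (0.431%) and 87 lower (0.536%). Libraries of the groups did not overlap in 783 of the called regions, and in 8226 of all regions tested (8.49%). The same held for 148 of the called genes and for 8.74% of all genes tested. Sizes were moderate, with a median absolute log2 fold change of 1.22 for called regions and 0.66 for called genes. In bulk libraries, a region open in fewer cells and a region less open in each cell cannot be told apart. The count of called regions fell to 275 without 1w BM 1, 306 without 1w BM 2, 490 without 4w BM 3, 528 without 3w BM 1 and 533 without 4w BM 2, and that of genes to 47 without 1w BM 1 and 74 without 1w BM 2. Thinning every library to the depth of the shallowest left 519 regions and 88 genes.

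**Figure D2:**
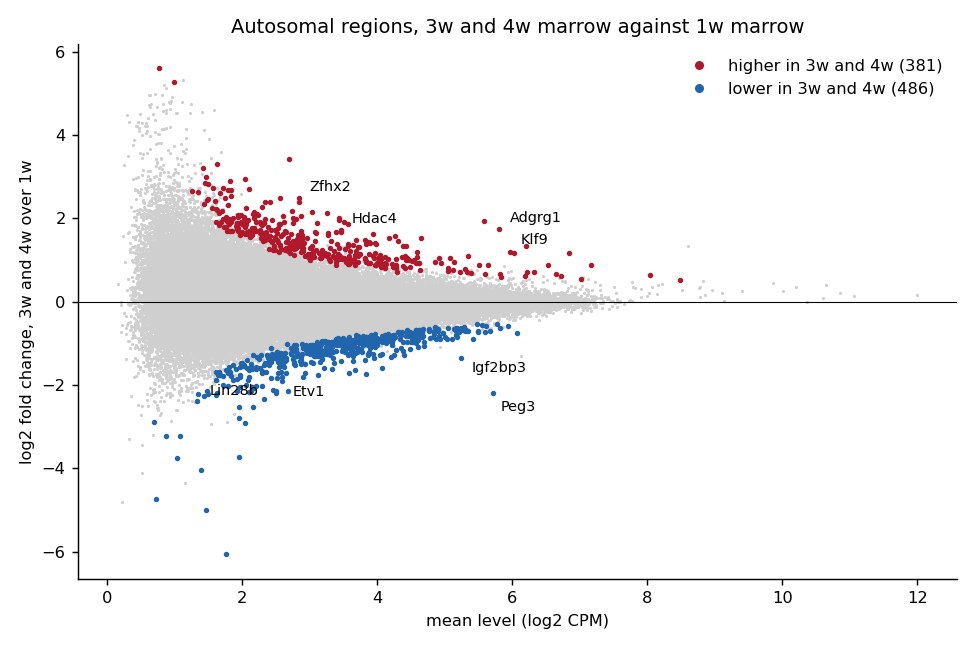
Log2 fold change of 3w and 4w BM over 1w BM (y axis) against mean level in log2 CPM (x axis) for each autosomal region tested, with called regions in red where higher (381) and blue where lower (486). Names mark the regions of Peg3, Klf9, Adgrg1, Igf2bp3, Lin28b, Zfhx2, Hdac4 and Etv1. Peg3 and Adgrg1 stand apart at high levels, while most called regions have low or middle levels.

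The direction was the same in 3w and in 4w BM for 867 of 867 called regions and 157 of 157 called genes. Since both ages were set against the same 1w libraries and both entered the pooled test, this count is a description and no separate support. Median absolute log2 fold changes over called regions were 1.17 in 3w BM and 1.24 in 4w BM, both against 1w BM, and over called genes 0.63 and 0.68. Tested alone, 3w BM against 1w BM called 85 regions (0.0877%), 55 higher (0.0567%) and 30 lower (0.0310%). Likewise 4w BM against 1w BM called 603 (0.622%), 279 higher (0.288%) and 324 lower (0.334%). The 3w group has 2 libraries and the 4w group 3. Between 4w and 3w BM, 0 of the 867 regions were called by edgeR, where 0.00929% of all regions tested were. At an unadjusted p under 0.05, 63 of the 867 passed by edgeR, a larger share than the 4.15% of all regions tested. DESeq2 called 0 regions of all tested between 4w and 3w BM.

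Regions and genes named for p or size below were taken from those whose libraries did not overlap, so for them the gap between the groups is no finding. Among the named regions the largest loss lay in Peg3, a paternally expressed imprinted gene for a zinc-finger protein with roles in growth and in adult stem cells. Its region at chr7:6727243-6728975, 2.3 kb into the gene (mm10, gene body), had 8.01 and 9.81 CPM in 3w BM, 9.52, 11.1 and 7.24 in 4w BM, and 45.5, 37.8 and 41.5 in 1w BM. The 3w and 4w libraries were all low and close to each other. The log2 fold change was -2.20 ± 0.17 (SE), adjusted p = 7.84e-14 by edgeR, with -2.25 in 3w BM and -2.16 in 4w BM. The level stood at 81.2 ± 19 CPM in perinatal BM, 41.6 ± 3.8 in 1w, 8.91 ± 1.3 in 3w, 9.27 ± 1.9 in 4w, 11.5 ± 2.4 in 6w and 7.65 ± 1.4 in 8w BM. The other 2 regions of Peg3, at its start and 0.8 kb inside, were not called, at -0.23 and -0.73. Summed over its 3 regions Peg3 fell by 1.33 on the log2 scale (adjusted p = 2.06e-08 by edgeR), a call lost with regions at gene ends alone (-0.51, adjusted p = 0.157), which leave out the called region.

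Zim1, the maternally expressed neighbour of Peg3 in the same imprinted domain, moved the same way. Its promoter region chr7:6696277-6696831 had 1.89 and 1.11 CPM in 3w BM, 3.33, 3.11 and 1.7 in 4w BM, and 7.64, 7.99 and 5.84 in 1w BM. All 5 libraries of 3w and 4w BM lay below the 3 of 1w BM, at -1.64 ± 0.34 and adjusted p = 0.0055 by edgeR. The authors' deposited peak lists had a peak there in 0 of 5 libraries of 3w and 4w BM and in 3 of 3 of 1w BM. Here and below, these lists come from the same libraries as the calls and are no separate support. As the only region of Zim1 it also gave the gene its call, lost without 1w BM 1 (adjusted p = 0.087) or 1w BM 2 (0.0555). Of 18 measured imprinted growth genes, 0 rose and 2 fell, Peg3 and Zim1, where 0.431% of all genes rose and 0.536% fell, with a median of -0.03 against 0.003 over all genes tested. The imprinted genes Zdbf2 and Dio3, a thyroid hormone deiodinase, had a lower promoter region (-1.22 and -1.77, adjusted p = 0.00303 and 0.0492 by edgeR), both picked after their values were seen.

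Igf2bp3 lost accessibility around its start. The region 3.1 kb before the start, chr6:49217671-49218357, had 26.3 and 23.0 CPM in 3w BM, 16.2, 13.6 and 18.5 in 4w BM, and 58.7, 38.1 and 51.6 in 1w BM. The groups did not overlap, and 4w BM was lower than 3w BM in every library, although 4w against 3w was not called for it. Pooled, the log2 fold change was -1.34 ± 0.17, adjusted p = 1.78e-06 by edgeR, with -1.01 in 3w BM and -1.64 in 4w BM. Regions at 0.5 kb before the start (-1.28) and over the promoter printed above (-1.30) were also lower, at adjusted p of 0.000225 and 0.0178 by edgeR, though no library had a deposited peak over the promoter. The other 10 of its 13 regions were not called. Summed, Igf2bp3 had 82.0 ± 14 CPM in 3w and 4w BM and 146 ± 19 in 1w BM (SD, n = 5 and 3).

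Lin28b had 1 called region, over its promoter, chr10:45470025-45470525. Levels there were 3.77 and 2.68 CPM in 3w BM, 2.86, 1.55 and 4.04 in 4w BM, and 11.7, 11.3 and 9.33 in 1w BM, with no overlap. The log2 fold change was -1.82 ± 0.31, adjusted p = 0.000418 by edgeR, and a deposited peak lay there in 0 of 5 libraries of 3w and 4w BM and 2 of 3 of 1w BM. Its other 3 regions stood at -0.64, -0.58 and 0.98 and were not called. The gene sum fell by 0.76 (adjusted p = 0.00653 by edgeR), not called without 1w BM 3 (0.0594) or with gene ends alone (0.295). Gene ends alone leave out the called promoter region, which lies 15789 bases inside the nearer end of the gene span.

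Of 18 measured fetal-type genes, 0 rose and 2 fell, Igf2bp3 and Lin28b, beside 0.431% and 0.536% of all genes, with a median of -0.11 against 0.003 over all genes. Hmga2, a chromatin protein and let-7 target, was at 172 ± 7.5 CPM in 3w and 4w BM and 196 ± 16 in 1w BM, a log2 difference of -0.18 with adjusted p = 0.354 by edgeR. Within it, 2 of 21 regions were called lower, at -2.17 and -0.85. Igf2bp2 stood at -0.33 (adjusted p = 0.176 by edgeR) and Igf2bp1, at 13.7 ± 2.3 CPM in 3w and 4w BM and 14.1 ± 4.1 CPM in 1w BM, at -0.01. In 6w and 8w BM against perinatal BM, 8 genes of the list fell and 1 rose, where 5.17% of all genes fell and 4.60% rose.

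The gain of smallest p was at Adgrg1, which encodes the adhesion receptor GPR56, a surface marker of blood stem cells. At chr8:95012360-95013113, 35.6 kb from the start and inside the gene span, there were 80.5 and 109 CPM in 3w BM, 80.2, 117 and 84.5 in 4w BM, and 24.5, 26.9 and 32.4 in 1w BM. The lowest library of 3w and 4w BM had more than the highest of 1w BM, and the log2 fold change was 1.74 ± 0.20 (adjusted p = 1.45e-07 by edgeR), equal in 3w (1.75) and 4w BM (1.74). The other 15 regions of Adgrg1 ranged from -0.71 to 0.41 and none was called. Adgrg3, the paralog GPR97 beside it, rose as a sum by 0.60 (adjusted p = 0.00346 by edgeR), with 161 ± 14 CPM in 3w and 4w BM and 105 ± 22 in 1w BM. The called region of Adgrg1 lay 1095 bases inside the nearer end of that gene's span, and the span of Adgrg3 begins at chr8:95017113. Which of these genes the region serves was not tested.

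Klf9, a Krüppel-like transcription factor induced by glucocorticoids and by thyroid hormone, gained over its start and upstream of it. The region 5.7 kb before the start, chr19:23134729-23136332, had 76.5 and 78.5 CPM in 3w BM, 85.4, 92.1 and 89.2 in 4w BM, and 34.8, 34.5 and 40.3 in 1w BM. This was a log2 fold change of 1.197 ± 0.15, adjusted p = 1.2e-06 by edgeR. Its promoter region had 46.7 and 42.4 CPM in 3w BM, 44.5, 49.8 and 50 in 4w BM, and 30.6, 25.4 and 30.6 in 1w BM (0.68, adjusted p = 0.0314 by edgeR), and a region 7.0 kb before the start rose by 0.92. As a gene, Klf9 had the largest gain of the 12 genes named for size, with 178 ± 7.4 CPM in 3w and 4w BM and 96.1 ± 4.6 in 1w BM (0.89 ± 0.09, adjusted p = 3.32e-08 by edgeR). It was the one glucocorticoid target called of 14 measured, 1 higher and 0 lower, beside 0.431% and 0.536% of all genes. The median of that list was 0.007.

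**Figure D3:**
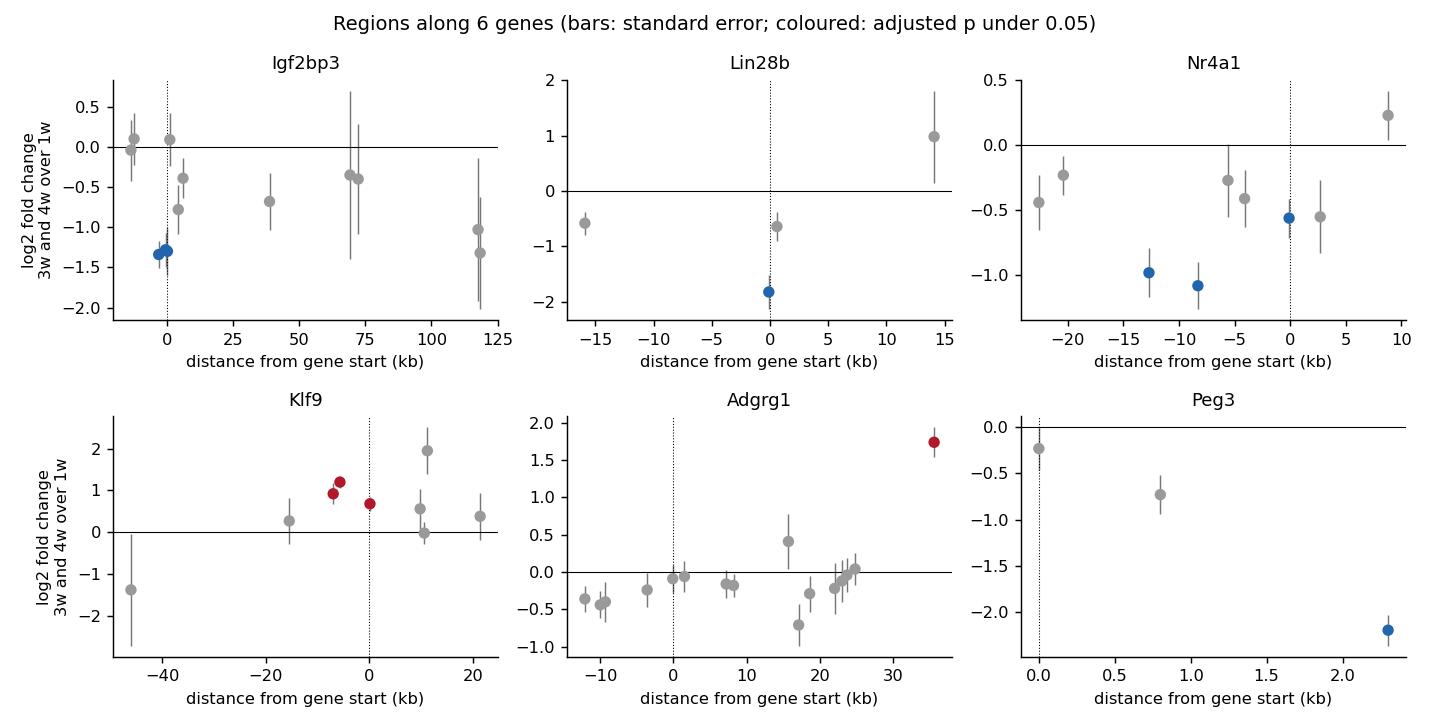
Log2 fold change of 3w and 4w BM over 1w BM (y axis, bars are standard errors) for the regions of 6 genes by distance from the gene start in kb (x axis), with called regions in red where higher and blue where lower. Called regions of Igf2bp3, Lin28b and Klf9 lie at or just before the start, those of Adgrg1 and Peg3 lie inside the gene, and the other regions of each gene are grey.

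Among further gains named by the rule, Zfhx2, a zinc-finger homeobox gene, had a region 2.48 higher on the log2 scale. This region, chr14:55055091-55055602, 4666 bases outside the gene, had 12.3 and 12.49 CPM in 3w BM, 16.9, 17.8 and 11.1 in 4w BM, and 1.72, 5.08 and 1.84 in 1w BM, with an SE of 0.33 and adjusted p = 6.36e-06 by edgeR. Deposited peaks covered it in 5 of 5 libraries of 3w and 4w BM and 0 of 3 of 1w BM. A region nearest to Hdac4, a class IIa histone deacetylase, but 29458 bases outside it, rose at chr1:92225160-92225793, with 18.1 and 13.2 CPM in 3w BM, 18.1, 17.3 and 16.6 in 4w BM, and 5.16, 4.36 and 5.43 in 1w BM (1.71, adjusted p = 4.98e-05 by edgeR). The other 17 regions of Hdac4 were not called. In the body of Map3k4, a kinase upstream of p38 and JNK, a region rose by 2.15, by 1.28 in 3w BM and 2.54 in 4w BM. A region inside the calcium channel gene Itpr1 (2.48), one 12310 bases outside the channel gene Trpc6 (1.61) and one 30814 bases outside the lipid phosphatase gene Plpp3 (1.68) rose too, with adjusted p between 6.06e-05 and 0.000176 by edgeR.

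The histone genes H3f3b, coding for the replacement histone H3.3, and H1f2, a linker histone, gained as sums. H1f2 had 130 and 119 CPM in 3w BM, 107, 115 and 120 in 4w BM, and 74.8, 83 and 73.2 in 1w BM, a log2 fold change of 0.63 ± 0.11 (adjusted p = 0.00124 by edgeR). H3f3b rose by 0.64, not called without 1w BM 2 (adjusted p = 0.0643 by edgeR). A region 916 bases past its 3′ end, chr11:116019274-116021045, rose by 1.94. It had 66.2 and 49.9 CPM in 3w BM, 93.7, 43.7 and 79.2 in 4w BM, and 18.7, 12.7 and 19.2 in 1w BM. Deposited peaks covered it in 2 of 5 libraries of 3w and 4w BM and 0 of 3 of 1w BM. Within 6w BM it ran from 23.4 to 93.2 CPM. The region over the start of H3f3b was not called (0.13, adjusted p = 0.793 by edgeR), with 103 ± 11 CPM in 3w and 4w BM and 94.4 ± 7.5 in 1w BM. Tspoap1, which binds the mitochondrial translocator protein TSPO, rose by 0.67 as a sum. A region 170 bases inside the nearer end of its span, chr11:87758364-87759426, rose by 1.33. The stress kinase gene Mapkapk3 rose by 0.68 (adjusted p = 0.000601 by edgeR), a call lost with gene ends alone (0.521). Neat1, the RNA scaffold of paraspeckles, had 5 of 11 regions higher and none lower, at 0.89 to 1.51. Its sum stood at 0.60 (adjusted p = 0.039 by edgeR), with 342 ± 67 CPM in 3w and 4w BM and 225 ± 5.9 in 1w BM, and missed the call by DESeq2 (0.104), with gene ends alone (0.233) and without any one of the libraries other than 4w BM 2 (0.0556 to 0.173). The rest named for size were Mroh5, Tmem184a, Zfp618, Sftpb and Dnajc6, at 0.60 to 0.66. Each of these 5 lost its call without 1w BM 2 or 1w BM 3, or both (adjusted p 0.0661 to 0.242). So did Tmem184a without 1w BM 1 or any 4w library (0.0554 to 0.173), Sftpb without 4w BM 2 (0.0818) and Dnajc6 without 1w BM 1 (0.0917). With gene ends alone Mroh5 stood at -0.06, Zfp618 at -0.47, Dnajc6 at 0.05 and Sftpb at 0.49, none called. Regions at Sfi1, called in 7 of 20, and at Ang6 are uncertain, since near-identical copies of these genes can share reads.

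On the losing side, the region chr12:38904436-38905024, 33953 bases outside Etv1, an ETS transcription factor gene, had 4.48 and 4.24 CPM in 3w BM, 1.90, 2.94 and 2.34 in 4w BM, and 7.83, 17.8 and 12.2 in 1w BM. Deposited peaks covered it in 0 of 5 libraries of 3w and 4w BM and 3 of 3 of 1w BM, and the log2 fold change was -1.91 ± 0.31 (adjusted p = 0.000215 by edgeR). The same peak counts held at Fmn1, an actin-nucleating formin, where a region inside the gene fell by 1.82 (adjusted p = 0.000391 by edgeR). Regions in Jmjd1c (-1.39), a relative of histone demethylases, Fam155a (-1.75), a subunit of a sodium leak channel, Stxbp4 (-1.12), Armh4 (-1.59) and Pitpnm2 (-1.44), and one 10918 bases outside the kinase gene Cdk18 (-1.25), were lower. As sums, Cnn3, an actin-binding calponin, fell by 0.64 (adjusted p = 0.00204 by edgeR), with 66.0 ± 6.7 CPM in 3w and 4w BM and 102 ± 8.3 in 1w BM. Stx8, Carmil2, Ubtd1, Map3k13, Cnrip1, Phax, Fam155a, Rab4a and Adamts1 fell by 0.57 to 0.68. Of these 9, Rab4a kept its call without any one library. With gene ends alone Rab4a (-0.46, adjusted p = 0.385 by edgeR), Stx8 (-0.04, 0.975) and Adamts1 (-0.63, 0.0704) lost the call. The call was lost without 1w BM 1 for Stx8, Carmil2, Map3k13, Cnrip1, Phax and Adamts1, without 1w BM 2 for Stx8, Ubtd1, Cnrip1 and Fam155a, and without 1w BM 3 for Ubtd1 and Phax (0.0594 to 0.222). Cnrip1 also lost it without 4w BM 3 (0.057).

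Nr4a1, an orphan nuclear receptor and immediate early gene active in quiescent stem cells, was lower in 3w and 4w BM than in 1w BM. Its region 8.3 kb before the start, chr15:101258270-101258892, had 19.6 and 33.0 CPM in 3w BM, 19.7, 20.6 and 20.2 in 4w BM, and 57.3, 43.2 and 42.2 in 1w BM. All libraries of 1w BM were above all of 3w and 4w BM, at -1.08 ± 0.18 and adjusted p = 0.000504 by edgeR. A region 12.7 kb before the start fell by 0.98 and the promoter by 0.56. Over its 9 regions the sum was 261 ± 23 CPM in 3w and 4w BM and 350 ± 39 in 1w BM, at -0.43 (adjusted p = 0.0205 by edgeR), a call lost without 1w BM 1 (0.244), 1w BM 2 (0.0544) or 3w BM 1 (0.0723) and with gene ends alone (0.601), which leave out the region 8.3 kb before the start. The levels in age order were 243 CPM in perinatal, 350 in 1w, 249.97 in 3w, 268 in 4w, 397 in 6w and 299 in 8w BM. It was the one gene called in opposite directions by the comparisons, at 0.52 in 6w and 8w BM against perinatal BM (adjusted p = 0.00197 by edgeR). The region 8.8 kb after the start was at 0.23 in 3w and 4w BM against 1w BM, where it was not called, and at 2.62 in 6w and 8w BM against perinatal BM. Of 25 immediate early genes measured, 0 were higher and 1 lower in 3w and 4w BM, beside 0.431% and 0.536% of all genes, with a median of -0.07. In 6w and 8w BM against perinatal BM, 10 of them were higher and 0 lower, where 4.60% of all genes were higher and 5.17% lower, and the difference between these comparisons was not tested. Of 24 adult-type genes, 0 were higher and 1 lower, again Nr4a1, beside 0.431% and 0.536% of all genes.

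Of the inflammatory and microbial sensing lists, 1 gene each was called, both higher, where 0.431% of all genes were higher and 0.536% lower. Il1b, the cytokine interleukin-1 beta, had 31.2 and 27.8 CPM in 3w BM, 29.4, 28.6 and 40.0 in 4w BM, and 13.8, 16.9 and 14.2 in 1w BM. The sum rose by 1.09 ± 0.17 (adjusted p = 0.000289 by edgeR), and it was the 1 gene called of 26 NF-kB and inflammatory genes, where 0 were lower. Nlrp3, the inflammasome sensor, was the 1 of 24 microbial sensing genes called, at 0.60 (adjusted p = 0.0469 by edgeR), with overlapping libraries. Its call was lost without 1w BM 1 (0.377), without 5 other libraries taken out one at a time (0.0881 to 0.145) and with gene ends alone (0.0814). Casp1, the protease that matures interleukin-1 beta, had a higher promoter region, with 19.1 and 17.8 CPM in 3w BM, 16.7, 13 and 18.5 in 4w BM, and 8.98, 8.35 and 8.71 in 1w BM (0.96). This region, at chr9:5298090-5299239 with adjusted p = 0.0304 by edgeR, was picked after its values were seen. Of 23 interferon response genes, 0 were called in either direction by edgeR and 0 passed at an unadjusted p under 0.05, with a median of 0.04. The medians of the inflammatory and sensing lists were 0.02 and 0.05.

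The called lymphoid genes were lower. Of 23 lymphoid priming and B cell genes, 0 rose and 3 fell, where 0.431% of all genes rose and 0.536% fell: Ebf1, a master factor of B cell commitment, Ccr9, a thymus-homing receptor, and Spib, an ETS factor of B cells and plasmacytoid dendritic cells. Ebf1 had 113 and 117 CPM in 3w BM, 104, 103 and 115 in 4w BM, and 156, 145 and 141 in 1w BM (-0.41, adjusted p = 0.0102 by edgeR). Ccr9 fell by 0.75, with 32.4 ± 7.4 CPM in 3w and 4w BM and 55.0 ± 9.6 in 1w BM, and Spib by 0.66. All 3 calls were lost without 1w BM 1, at adjusted p of 0.111 for Ebf1, 0.206 for Ccr9 and 0.0754 for Spib. With gene ends alone none was called, at -0.05 for Ebf1, 0.18 for Ccr9 and -0.66 for Spib. Ccr9 was also not called without 1w BM 2 (0.0556), 4w BM 2 (0.0523) or 4w BM 3 (0.0578), and Spib without any one of the libraries other than 3w BM 2 (0.0543 to 0.179). The summed level of the list was 1882 to 2083 CPM in 3w and 4w BM and 2028 to 2140 in 1w BM, ranges that overlap.

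Other cell types were followed by their markers. Hbb-bt, an adult beta-globin, was the 1 gene called of 16 erythroid genes, where 0.536% of all genes were lower. It stood at -0.96 (adjusted p = 0.0152 by edgeR), a call lost without 1w BM 2 (0.242) or with gene ends alone (0.215). Alb, the hepatocyte gene for albumin, fell as a sum by 0.88 (adjusted p = 0.0248 by edgeR), with 11.3 and 14.2 CPM in 3w BM, 8.59, 14.1 and 10.6 in 4w BM, and 23.1, 25 and 18.3 in 1w BM, lost without 1w BM 1 (0.152), 1w BM 2 (0.111), 3w BM 1 (0.057), 4w BM 1 (0.0681) or 4w BM 3 (0.0699). Its only called region lay 45.8 kb before the start, at -1.49 (adjusted p = 0.00443 by edgeR). That region had 4.55 ± 2.0 CPM in 3w and 4w BM and 13.2 ± 2.8 in 1w BM. With gene ends alone the Alb sum stood at -0.30 and was not called (adjusted p = 0.875 by edgeR). The 10 measured hepatocyte genes summed to 198 to 216 CPM in 3w and 4w BM and 187 to 262 in 1w BM. Summed neutrophil markers ran from 712.5 to 725 CPM in 3w and 4w BM and 719 to 781 in 1w BM. Macrophage markers ran from 1675 to 1820 CPM in 3w and 4w BM and 1678 to 1770 in 1w BM, and both lists overlapped. Endothelial markers did not overlap, at 1048 to 1106 CPM in 3w and 4w BM and 1123 to 1191 in 1w BM, nor did genes of tissues foreign to marrow, at 234 to 277 CPM in 3w and 4w BM and 282 to 291 in 1w BM. No gene of either list was called by edgeR, while 4 of 18 endothelial and 2 of 15 foreign genes were lower at an unadjusted p under 0.05, where 6.21% of all genes were. The part of these marker levels in the results was not tested.

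Other lists held no call, save that of glycolysis and hypoxia. At an unadjusted p under 0.05, 6.21% of all genes were lower and 5.67% higher in 3w and 4w BM. Of 26 stem and progenitor identity genes 0 were called and 4 were lower unadjusted, with a median of -0.07. Their sum did not overlap, at 3808 to 3961 CPM in 3w and 4w BM and 4004 to 4246 in 1w BM. Of 18 Notch pathway genes 0 were called and 5 were lower unadjusted, with the lowest median of all lists at -0.11 and sums of 2820 to 3026 CPM in 3w and 4w BM and 3074 to 3205 in 1w BM. In all, 6 of the 35 lists had sums that did not overlap, each lower in 3w and 4w BM, and the libraries of single genes did not overlap in 8.74%. Beside the 4 lists named so far these were the fetal-type genes, at 1237 to 1314 CPM in 3w and 4w BM and 1338 to 1462 in 1w BM, and the imprinted genes, at 971 to 1017 CPM in 3w and 4w BM and 1080 to 1127 in 1w BM. Of 12 Hox genes 0 were called and 1 was lower unadjusted. Cell cycle and replication genes numbered 24 with 0 called, 1 lower unadjusted and a median of 0.004. Of 18 oxidative phosphorylation genes, 0 were called and 0 passed unadjusted. In the glycolysis and hypoxia list of 20, the 1 gene called was Egln3, a prolyl hydroxylase that marks HIF for decay, where 0.536% of all genes were lower. It fell by 0.41 (adjusted p = 0.0352 by edgeR), a call lost without any one of 5 libraries (0.08 to 0.173) or with gene ends alone (0.495).

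**Figure D4:**
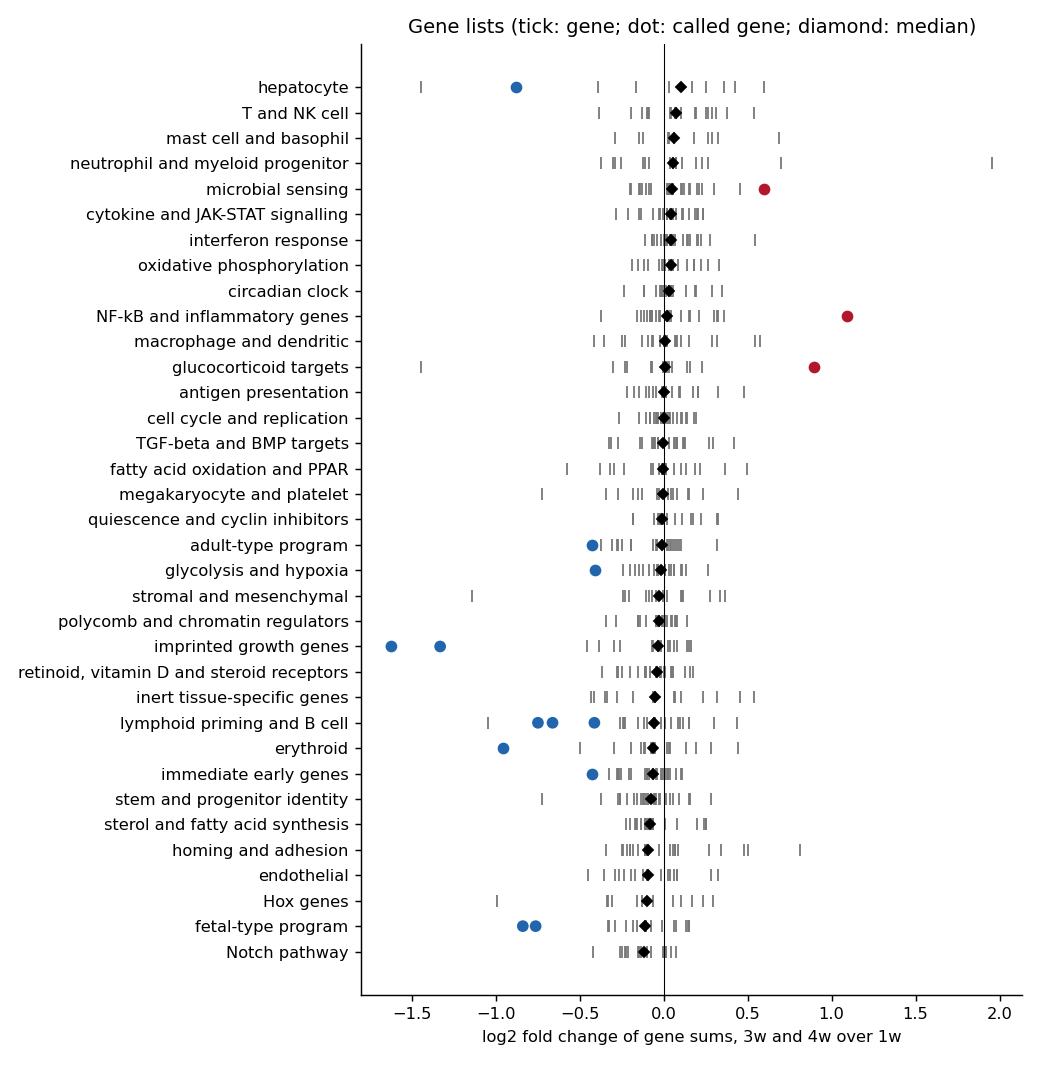
Log2 fold change of gene sums in 3w and 4w BM over 1w BM (x axis) for the measured members of 35 gene lists (y axis), with a tick for each gene, a dot for each called gene (red higher, blue lower) and a diamond for the list median. Medians lie between -0.114 and 0.101, and the called genes lie apart from the rest of their lists.

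At promoters and gene ends the higher regions fell short of the share among autosomal regions, while the lower regions lay near it. Of the 381 higher regions, 10 (2.6%) overlapped a RefSeq promoter window, against 72 (14.8%) of the 486 lower regions and 12.9% of autosomal regions. Regions within 1 kb of a gene end numbered 41 of the higher (10.8%) and 80 of the lower, beside 18.0% of autosomal regions. Gene bodies took 47.8% of the higher, 44.4% of the lower and 43.8% of autosomal regions. No gene lay within 50 kb of 11.5% of the higher, 17.5% of the lower and 13% of autosomal regions. As these classes come from the called regions themselves, the shares are a description with no test. The share of all counts at gene ends was 43.4% ± 0.26 in 3w and 4w BM and 44.1% ± 1.8 in 1w BM (SD, n = 5 and 3). A difference was not detected (p = 0.393, exact permutation of libraries, two-sided, smallest possible p 0.0357).

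The promoter windows under higher regions were few and poor in CpG. Median CpG counts were 10 in 10 windows under higher regions, 19 in 86 under lower regions and 20 in 15696 under regions tested. The GC box GGGCGG was in 10.0% of the higher windows, 64.0% of the lower and 61.9% of those tested. CCAAT was in 30.0% of the higher, 51.2% of the lower and 36.1% of those tested, and in 37.4% of all 32851 windows of the same length. The AP-1 motif TGANTCA was in 2 (20%) of the higher windows, 3 (3.5%) of the lower and 5.5% of those tested. The cAMP element TGACGTCA was in 0.0%, 4.7% and 3.0% and the NR4A element AAAGGTCA in 0.0%, 0.0% and 0.9% of the same windows. Among promoters with a higher region were Casp1, printed above, and the MHC class I genes H2-Q7 (1.06) and H2-Q6 (1.03), near-identical paralogs whose counts are uncertain. Promoters with a lower region included those of the transcription factor genes Isl1 (-0.79) and Id4 (-0.77), with a deposited peak in all 8 libraries. Those of the transcription factor gene Sox2 (-0.93) and the BMP antagonist gene Grem1 (-0.95) had one in 0 of 5 libraries of 3w and 4w BM and 1 of 3 of 1w BM. These genes were picked after their values were seen.

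The libraries of 6w and 8w BM and of perinatal BM share none with the comparison of 3w and 4w BM against 1w BM. Between them 6081 of the regions tested (6.27%) and 1586 genes (9.77%) were called by edgeR. Of the 867 regions, 798 (92.0%) had the same sign there and 383 (44.2%) were called the same way, with 1 called the other way. By direction, 184 of the 381 higher regions (48.3%) were also higher, where 3.00% of all regions were, and 199 of the 486 lower (40.9%) were also lower, where 3.27% were. Of the 157 genes, 152 (96.8%) had the same sign and 97 (61.8%) were called the same way. The log2 fold changes of 6w and 8w BM over perinatal BM were 2.07 for the Adgrg1 region, 1.56 for Klf9, 2.69 for Zfhx2, 3.07 for Tspoap1, -3.09 for Peg3, -2.54 for Igf2bp3 and -1.71 for Lin28b. At Adgrg1 the mean was 27.6 CPM in perinatal, 27.9 in 1w, 94.9 in 3w, 93.8 in 4w, 118 in 6w and 117 in 8w BM, with the largest step between 1w and 3w. Tspoap1 went on upward, at 20.2 CPM in perinatal, 37.0 in 1w, 86.5 in 3w, 101 in 4w, 189 in 6w and 153 in 8w BM. Of the 24 named regions, 20 were called there and 4 were not by edgeR, those at Map3k4 (0.83, adjusted p = 0.063), Itpr1 (0.99, 0.0593), Stxbp4 (-0.45, 0.125) and Nr4a1 (-0.50, 0.0823).

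**Figure D5:**
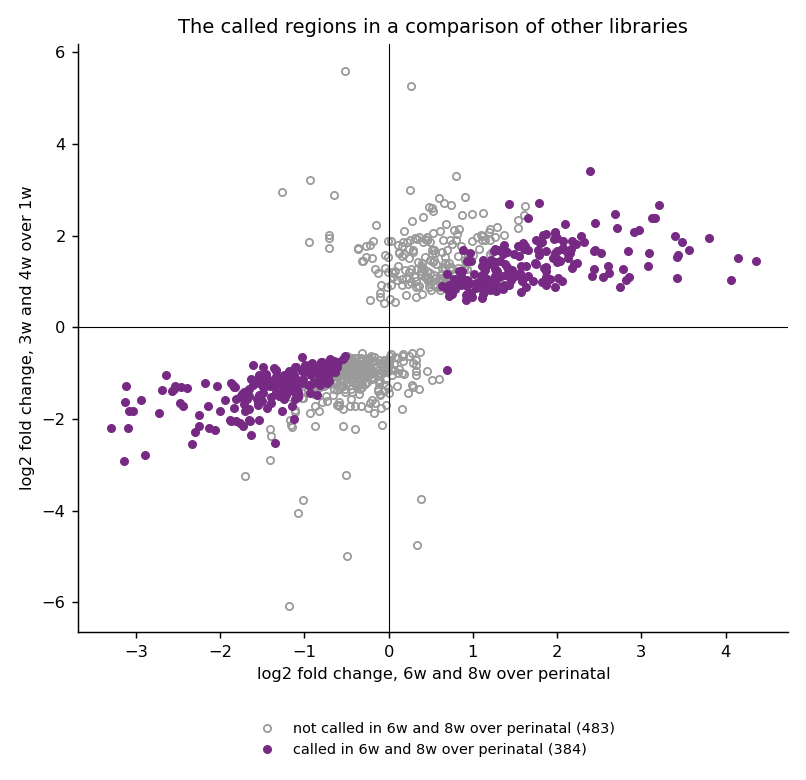
Log2 fold change of 3w and 4w BM over 1w BM (y axis) against that of 6w and 8w BM over perinatal BM (x axis) for the 867 called regions, filled where called between 6w and 8w BM and perinatal BM as well. Of the 867, 798 lie in the quadrants of equal sign.

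The 3w and 4w groups differed from each other at 9 regions (0.00929%), 1 higher (0.00103%) and 8 lower (0.00825%) in 4w BM. The higher one lay near Insig1, an anchor protein that holds back sterol synthesis, at chr5:28098352-28099828, with 20.5, 35.2 and 20.6 CPM in 4w BM and 8.01 and 5.35 in 3w BM (1.90, adjusted p = 0.021 by edgeR), beside 7.26, 5.08 and 8.51 in 1w BM. The 8 lower ones fell by 3.05 to 3.69 and had median levels of 3.09, 1.99 and 2.13 CPM in the 4w libraries and 21.7 and 30.2 in the 3w libraries. Over the same regions the 1w libraries had medians of 1.43, 43.6 and 17.9, so libraries of 1 age were high and low. Summed per gene, 0 genes were called between 4w and 3w BM by edgeR, with 618 at an unadjusted p under 0.05 and 1 called by DESeq2. Leaving out either 3w library, 4w BM 2 or 4w BM 3 left 0 regions called, and leaving out 4w BM 1 left 4. Without a 3w library, the one that remains is assumed to vary like the other groups. Leaving out 1w BM 1 gave 31 regions and leaving out 1w BM 2 gave 20.

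The deposited peak lists gave the number of open regions in each library. Autosomal peaks numbered 49541 and 39661 in 3w BM, 27991, 47267 and 32807 in 4w BM, and 44728, 29642 and 49622 in 1w BM. The ranges overlapped, and the ratio of geometric means was 0.955 for 3w and 4w BM over 1w BM (two-sided p = 0.75, exact permutation). Peak numbers move with depth, and the authors' peaks were listed for each library on its own. At the named regions peaks often did not split the groups. The Peg3 region had one in 1 of 5 libraries of 3w and 4w BM and 2 of 3 of 1w BM. Those of Adgrg1, Klf9, Trpc6, Igf2bp3, Stxbp4, Cdk18 and Nr4a1 had one in 5 of 5 and 3 of 3.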

How the data were processed

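Open chromatin was measured by ATAC-seq with a Tn5 transposome and 10 PCR cycles, per the labels' protocols. The authors deposited a table of raw read counts per region and library on mm10, and per library a MACS2 peak list with a fold enrichment (a ratio over background) and −log10 p and q, per the file headers. Trim Galore, MACS2, deepTools, DiffBind and HOMER are named in the submitters' processing notes. The aligner, treatment of duplicates, Tn5 shift, region merging and peak settings are not given in the sources used here. Duplicates left in would raise counts at single sites.

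The counts of the 19 autosomes were fitted with edgeR 4.0.16 (R 4.3.3, limma 3.58.1), with TMM scaling, filterByExpr at a minimum count of 10 and the quasi-likelihood test. All 26 developmental libraries entered 1 fit, with 3w and 4w BM sharing a mean in the pooled comparison and a mean for each of 9 groups otherwise. CPM are these counts over TMM-scaled totals. Regions went to the gene whose RefSeq span was nearest within 50 kb, and gene sums add their counts. Positions count from 1.

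Named regions were the 12 of smallest p, and named genes the 12 of largest fold, in each direction, among called, non-overlapping features above the median level, predicted genes left out, with at most 4 called members of each of the 35 lists and 10 fixed genes. The members and the lists were chosen with earlier results of these data known. Counts of peaks and shares of counts were compared by exact permutation (SciPy 1.17.1). Alternatives were DESeq2 1.42.0 and its size factors, cyclic loess offsets, total counts, no low-count filter, thinning, leaving out libraries, fits of fewer groups, a replicate block, and gene ends alone. The scripts were tested on simulated data. Intervals and errors cover the spread between libraries.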

Additional observations from a re-analysis of the deposited data

Results flagged for a closer look

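Within the 5 libraries of 3w and 4w BM, 3 named features had a library that stood apart from the other 4. The Nr4a1 region 8.3 kb before the start had 33.0 CPM in 3w BM 2, against 19.6 to 20.6 in the others. The summed Nr4a1 level was 222 CPM in 3w BM 1, against 264 to 278. The Il1b sum was 40.0 CPM in 4w BM 3, against 27.8 to 31.2. With 68 such tests, chance flags about 1 in 20.

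The change differed between 4w and 3w BM by edgeR at 9 regions, given here as log2 fold changes of 4w over 3w BM. They were -3.69 near Fstl1, -3.58 near Lmo3, -3.07 near Itprip, -3.54 near Zfp791, -3.08 near Kat6b, -3.39 near Fras1, -3.05 near Stam2, -3.09 at a region of chromosome 19 with no gene within 50 kb, and 1.90 near Insig1. For the 8 lower regions the median level was also uneven within other ages, at 1.43, 43.6 and 17.9 CPM in the 1w libraries. By age those medians were 84.4 to 117 CPM in perinatal, 25.8 to 45.7 in 6w and 1.51 to 3.27 in 8w BM.

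The X chromosome was left out of the comparisons. With all chromosomes fitted, 4 of its regions were called between 3w and 4w BM and 1w BM.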

How the results depend on the processing

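All 24 named regions kept their direction and their call under the 19 alternatives, with adjusted p up to 0.0259. They were picked for the smallest p in the same libraries, so this says little about the other called regions. Of the 35 named genes that were called, 5 kept the call under all 20 alternatives, namely Klf9, Tspoap1, H1f2, Igf2bp3 and Cnn3, and Adgrg3 and Il1b under 19, having no value with gene ends alone. Directions reversed with gene ends alone for Mroh5 (-0.06), Zfp618 (-0.47) and Ccr9 (0.18). Called regions between 3w and 4w BM and 1w BM numbered 519 after thinning, and genes 246 by DESeq2, 88 after thinning and 64 with gene ends alone, where fewer regions enter a sum. Regions of 3w against 1w BM numbered 180 by DESeq2, 201 without E12.5 PL and 45 after thinning, and those of 4w against 1w BM 942 without E12.5 PL. Between 4w and 3w BM, DESeq2 called 0 regions, the fit without E12.5 PL 37, thinning 14 and the fit of the compared groups alone 100. Genes there numbered 1 by DESeq2, 1 with loess and 22 with the compared groups alone. Genes of 6w and 8w against perinatal BM numbered 1051 with gene ends alone. Except for thinning and gene ends, the cause was not tested.

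Leaving out 1 library at a time gave 275 to 803 regions and 47 to 154 genes in the pooled comparison. The ranges were 11 to 84 regions for 3w against 1w BM, where the low end has 1 library of 3w BM, assumed to vary like the other groups, and 177 to 700 for 4w against 1w BM and 0 to 31 for 4w against 3w BM, and 3592 to 6123 regions and 978 to 1612 genes for 6w and 8w against perinatal BM. Depth limits regions of low count, as 1w BM 2 had 2845113 counts.

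Replicate numbers were shared by the groups but did not pair the libraries, as deviations of same-numbered libraries correlated at -0.0558 to 0.0931. With a replicate block, 1063 regions and 238 genes were called in the pooled comparison and 20 regions between 4w and 3w BM.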

Other observations

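In 3 genes whose sums were not called, single regions were. All 3 genes were picked after their values were seen, and 0.894% of all regions tested were called. Prdm16, a zinc-finger regulator of blood stem cells, had 2 of 26 regions lower in 3w and 4w BM than in 1w BM, at -1.69 and -0.73. Msi2, an RNA-binding protein of the Musashi family, had 2 of 49 lower, at -1.44 and -1.03. Cdk6, a cyclin-dependent kinase, had 2 of 28 higher, at 1.77 and 1.90.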
